A study of Mus musculus with 9 samples.

Results

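Homeostatic and lymphoid chemokines and their receptors were followed in mouse skin treated with imiquimod, without or with oral vanillin. The group comprised 10 genes chosen by name, with earlier results of these data known. They were the ligands Cxcl12, Cxcl13, Cxcl14, Ccl19, Ccl21a and Ccl27a and the receptors Cxcr4, Cxcr5, Ccr7 and Ccr10. Each was matched to array probes by current symbol or older synonym. Probes were found for 7 of the 10 genes, 3 ligands and all 4 receptors, among 17742 genes with a probe. Cxcl14 had 2 probes and each of the others had 1, which made 8 member probes of 26423. Ccl19, Ccl21a and Ccl27a matched no named probe and were not analysed here.

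RNA came from the treated back skin of female BALB/c mice whose age is not given in the sources used here, in 3 groups of 3 one-colour arrays. Mock mice received Vaseline cream daily on shaved skin for 7 days. IMQ mice had imiquimod applied instead over the same time, a toll-like receptor agonist that induces psoriasis-like inflammation. The vanillin group received imiquimod on the skin together with 100 mg/kg of vanillin by mouth, so every vanillin value here is one of imiquimod plus vanillin and no group received vanillin alone. One label of the vanillin group words the agents as given "and/or", while its treatment label names both. Nothing in the labels ties each array to its own mouse, so p-values reflect array-to-array spread, which may be technical.

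Chemokines are small secreted proteins that direct the movement of cells through G protein-coupled receptors. The homeostatic members are made in resting tissue and lymphoid organs rather than being switched on only by injury. CXCL12, from fibroblasts and endothelium, holds and recruits cells that carry CXCR4. CXCL13 draws CXCR5-bearing B cells and follicular helper T cells into lymphoid follicles, CCL19 and CCL21 guide CCR7-bearing dendritic cells and T cells to lymph nodes, and CCL27, made by keratinocytes, attracts CCR10-bearing T cells to skin. CXCL14 is a chemokine of normal epithelium, skin included.

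Array medians ran from 628.9 to 631.1 intensity units. Correlations of log2 intensity ran from 0.989 to 0.992 among mock, 0.992 to 0.996 among IMQ and 0.984 to 0.994 among vanillin arrays. The labels name the tissue as skin but their extraction text names muscle. Keratinocyte markers had a median intensity percentile of 99.6 over all probes, and skeletal muscle markers one of 98.7.

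With imiquimod, 2 ligand genes fell and 1 rose. Cxcl12 and Cxcl14 were lower in IMQ than in mock skin and Cxcl13 was higher, while of the receptor genes Ccr7 was slightly higher and the other 3 were not called. Over the 7 measured members, 2 were called higher and 2 lower at an adjusted p under 0.05, and 3 were not called. These 4 calls stand beside 53.6% of all probes called in the same comparison (24.0% higher and 29.6% lower), so the share of members called was near that of the array as a whole. The median log2 change of the members was -0.15, beside -0.06 over all genes.

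Cxcl12, the ligand of CXCR4, had log2 intensities of 14.15, 14.22 and 14.26 in mock, 12.83, 12.75 and 12.85 in IMQ, and 12.73, 12.65 and 12.59 in vanillin skin. All 3 mock arrays lay above all 6 imiquimod-treated arrays. The mean fell from 14.21 ± 0.06 to 12.81 ± 0.05 (SD, n = 3 arrays each), a log2 change of -1.40 ± 0.08 (SE, adjusted p = 5.58e-06). That is 2.64-fold lower. Fewer cells that express a gene and less RNA of it per cell cannot be told apart in these tissue samples.

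Cxcl14, the epithelial ligand, was measured by 2 probes. The brighter one read 14.53, 14.29 and 14.14 in mock, 13.40, 13.33 and 13.55 in IMQ, and 13.50, 13.43 and 13.39 in vanillin skin. The dimmer one read 13.43, 13.26 and 13.16 in mock, 12.01, 11.97 and 11.96 in IMQ, and 12.30, 12.23 and 12.13 in vanillin skin. On both probes every mock array was above every treated array. The log2 change with imiquimod was -0.89 ± 0.12 (SE, adjusted p = 0.000283) on the brighter and -1.30 ± 0.09 (SE, adjusted p = 1.62e-05) on the dimmer probe, or 1.85-fold and 2.46-fold lower.

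Cxcl13, the ligand of CXCR5, moved the other way. Its log2 intensities were 10.11, 9.82 and 9.88 in mock, 11.17, 11.09 and 11.05 in IMQ, and 12.35, 12.35 and 12.23 in vanillin skin. The 3 groups formed separate steps with no overlap, lowest in mock and highest with vanillin. With imiquimod the mean rose from 9.94 ± 0.15 to 11.10 ± 0.06 (SD, n = 3 arrays each), a log2 change of 1.17 ± 0.10 (SE, adjusted p = 3.26e-05) or 2.24-fold.

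**Figure D1:**
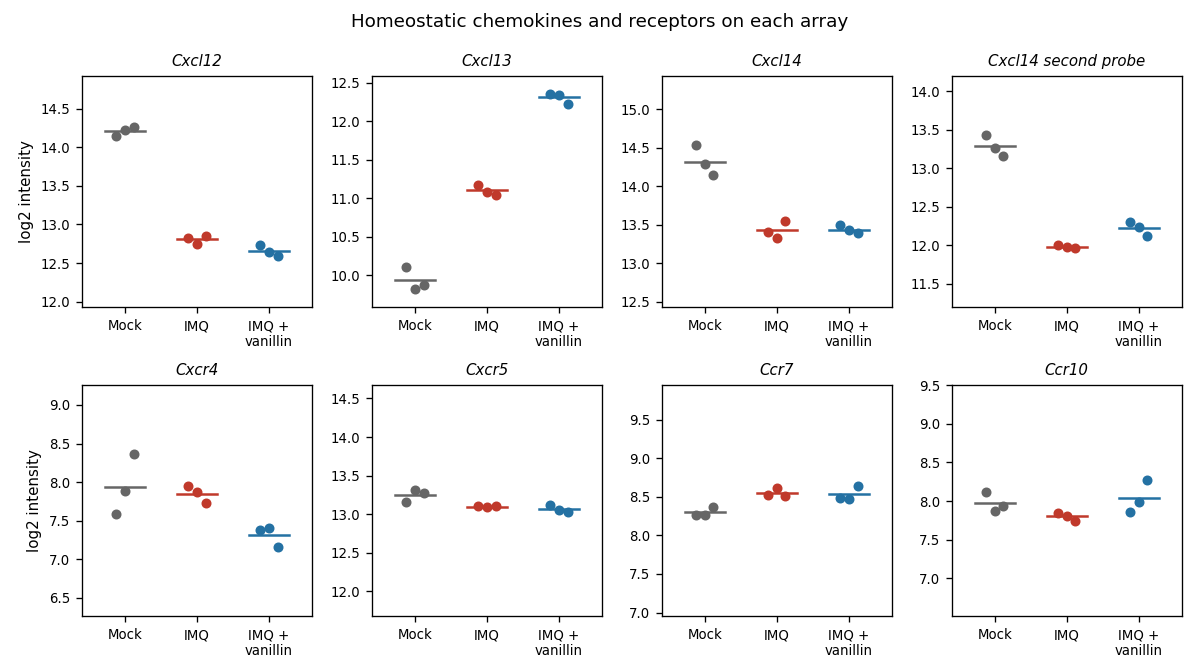
Log2 intensity (y axis, the same span in every panel) of each member probe on the 3 arrays of each group (x axis; points are arrays in the order of their replicate numbers, which has no meaning, and bars are group means). Cxcl12 and both Cxcl14 probes are highest in mock skin, with means of 14.21, 14.32 and 13.28, and Cxcl13 forms steps at 9.94, 11.10 and 12.31. Of the receptors Cxcr4 spreads most, from 7.15 on a vanillin array to 8.36 on a mock array, and the others lie closer together.

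The bases before the annotated starts of Cxcl13 and Cxcl12 are shown because these genes had the largest changes in opposite directions. They come from RefSeq (mouse build GRCm38.p6) and span 250 bases each, at chr5:95956689-95956938 and chr6:117168285-117168534, both on the plus strand. Capitals mark matches on either strand to any of 5 short motifs. The TATA box was searched as TATAAA. The GC box, bound by Sp factors, was searched as GGGCGG. The AP-1 motif was searched as TGANTCA. A loose form of the NF-kB motif was searched as GGGANNTT. The STAT motif was searched as TTCNNNGAA.
Cxcl13: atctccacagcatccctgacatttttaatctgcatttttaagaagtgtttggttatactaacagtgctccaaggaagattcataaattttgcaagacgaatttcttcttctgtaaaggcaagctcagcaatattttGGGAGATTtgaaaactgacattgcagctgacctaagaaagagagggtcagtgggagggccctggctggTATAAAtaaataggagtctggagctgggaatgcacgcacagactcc
Cxcl12: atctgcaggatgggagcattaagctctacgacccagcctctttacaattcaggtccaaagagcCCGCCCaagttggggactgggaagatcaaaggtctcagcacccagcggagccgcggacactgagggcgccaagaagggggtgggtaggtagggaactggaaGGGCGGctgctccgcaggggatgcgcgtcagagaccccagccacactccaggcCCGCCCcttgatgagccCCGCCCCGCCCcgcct

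The Cxcl13 window held 1 TATAAA, starting 46 bases before the start site, and 1 GGGANNTT, starting 114 bases before it, with no GGGCGG. The Cxcl12 window held 5 matches to GGGCGG, 4 of them on the minus strand and 2 of those overlapping by 1 base, and none to TATAAA or GGGANNTT. Neither window held TGANTCA or TTCNNNGAA. GC content was 42.0% for Cxcl13 and 64.4% for Cxcl12, beside a median of 52.4% over 32851 windows of this length. Of those windows 12.4% held TATAAA, 32.7% GGGCGG, 6.75% TGANTCA, 12.8% GGGANNTT and 7.02% TTCNNNGAA. These matches describe the letters in the windows, and binding was not measured.

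Among the receptors, Ccr7, which guides dendritic cells and T cells toward lymph nodes, read 8.26, 8.27 and 8.36 in mock and 8.52, 8.61 and 8.51 in IMQ skin. The IMQ arrays were all above the mock arrays, by a small margin. The log2 change was 0.25 ± 0.08 (SE, 1.19-fold, adjusted p = 0.0333). Leaving out mock replicate 1 or 2 or any IMQ replicate ended the call, which makes 5 of 9 such fits, with an adjusted p of up to 0.115. It was also lost with a trended and robust spread prior (adjusted p = 0.0629).

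Cxcr4, the receptor of CXCL12, was dim (percentile 30.0 of mean intensity) and read 7.58, 7.88 and 8.36 in mock and 7.95, 7.88 and 7.73 in IMQ skin. The groups overlapped, and mock replicate 3 was the highest of all 9 arrays. The log2 change of -0.09 had a 95% interval from -0.51 to 0.33 (adjusted p = 0.701), and it read 0.12 without mock replicate 3.

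Cxcr5, the receptor of CXCL13, read 13.16, 13.32 and 13.28 in mock and 13.10, 13.09 and 13.10 in IMQ skin. Its probe was bright (percentile 88.5), beside a median percentile of 44.4 for the B cell markers, and whether it reads only Cxcr5 was not tested. The IMQ arrays lay just below the mock arrays. The log2 change of -0.15 (95% interval -0.33 to 0.02, adjusted p = 0.128) was not called, but it was called without mock replicate 1 (-0.20, adjusted p = 0.0440) and with array weights (-0.20, adjusted p = 0.00160).

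Ccr10, the skin-homing receptor of CCL27, read 8.11, 7.87 and 7.94 in mock and 7.85, 7.81 and 7.74 in IMQ skin, on a dim probe (percentile 33.0). The log2 change was -0.17 (95% interval -0.45 to 0.10, adjusted p = 0.251). The reference table also lists CCR10 as an older name of Ackr2, a scavenger of inflammatory chemokines, and no accession was at hand to settle which gene this probe reads.

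On adding vanillin to imiquimod 2 members were called, beside 4 with imiquimod. The share of all probes called was also lower, at 41.2% beside 53.6%. The main change was a further rise of Cxcl13, whose mean went from 11.10 ± 0.06 in IMQ to 12.31 ± 0.07 in vanillin skin (SD, n = 3 arrays each). Its log2 change was 1.21 ± 0.10 (SE, 95% interval 0.98 to 1.43, adjusted p = 0.000439), or 2.31-fold, and 99.5% of all probes changed by less or fell. Of the 7 members 1 was called higher, 1 lower and 5 were not called, beside 41.2% of all probes called (24.3% higher and 17.0% lower). The median log2 change was -0.02 over the members and 0.06 over all genes.

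Cxcl12 and Cxcl14 stayed near their IMQ levels. Cxcl12 was slightly lower on all 3 vanillin arrays than on any IMQ array, with a log2 change of -0.15 (95% interval -0.34 to 0.03, adjusted p = 0.160). The brighter Cxcl14 probe overlapped between the groups, with a log2 change of 0.01 (95% interval -0.25 to 0.27, adjusted p = 0.953), and fell on either side of 0 when single arrays were left out. The dimmer Cxcl14 probe was above IMQ on all 3 vanillin arrays, at 0.24 (95% interval 0.02 to 0.45, adjusted p = 0.0735). It was not called, but 3 alternatives called it: a trended and robust spread prior (adjusted p = 0.0460), array weights (0.00534) and a fit of only these groups (0.0437). It was also called without mock replicate 1 (0.0342) or vanillin replicate 3 (0.0431).

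Cxcr4 read 7.38, 7.40 and 7.15 in vanillin skin, all below the 3 IMQ arrays. The log2 change was -0.54 ± 0.18 (SE, 1.45-fold lower, adjusted p = 0.0435). This call was kept in only 2 of 9 fits with 1 array left out, those without mock replicates 1 and 3. It was lost without mock replicate 2, without any IMQ replicate and without any vanillin replicate, at an adjusted p of up to 0.126.

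Cxcr5 (13.12, 13.06 and 13.03 with vanillin) and Ccr7 (8.49, 8.47 and 8.64) overlapped their IMQ values. Their log2 changes were -0.03 (95% interval -0.21 to 0.15) and -0.02 (95% interval -0.21 to 0.18), and neither was called. Ccr10 read 7.86, 7.99 and 8.27 with vanillin, above all IMQ arrays, with vanillin replicate 3 the highest of all 9 arrays. Its change of 0.24 (95% interval -0.03 to 0.51, adjusted p = 0.138) was not called.

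**Figure D2:**
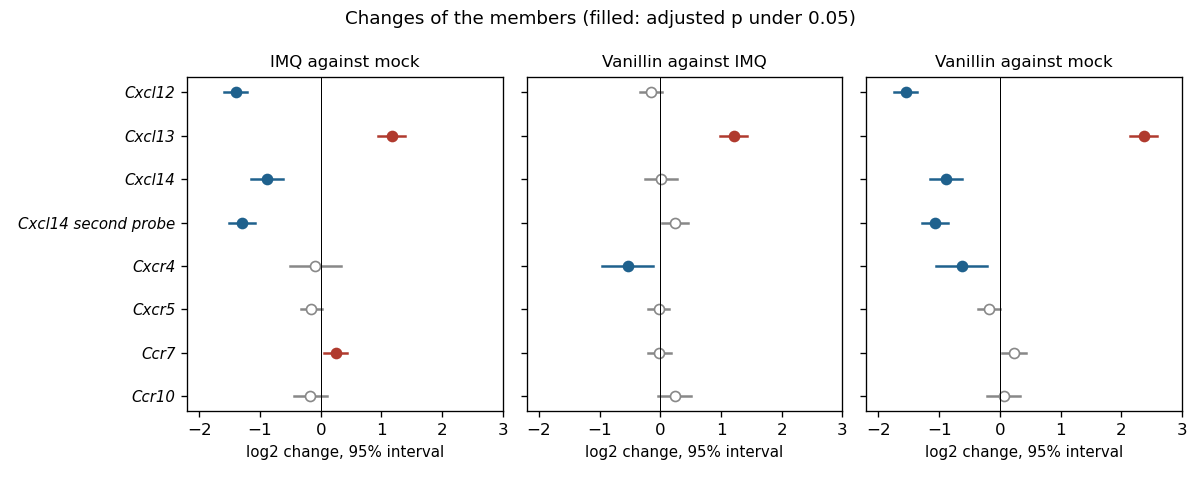
Log2 change (x axis, with 95% interval as a line) of each member probe (y axis) in each of the 3 comparisons; filled points passed an adjusted p under 0.05, red higher, blue lower, and open grey points did not pass. Cxcl13 lies to the right of 0 in all panels (1.17, 1.21 and 2.37), while Cxcl12 is at -1.40, -0.15 and -1.55.

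Against mock skin, the vanillin group showed both sets of changes at once. Cxcl13 stood 5.18-fold above mock with a log2 change of 2.37 ± 0.10 (SE, adjusted p = 1.14e-06). Cxcl12 stood 2.94-fold below it, at -1.55 ± 0.08 (SE, adjusted p = 4.04e-06). Cxcl14 was lower on the brighter (-0.88 ± 0.12, adjusted p = 0.000644) and the dimmer probe (-1.06 ± 0.09, adjusted p = 7.75e-05). This comparison shares its arrays with the other comparisons, so it is no independent evidence. Over the members 1 was called higher, 3 lower and 3 not called, beside 26.7% of all probes called (11.9% higher and 14.7% lower), and the median log2 change was -0.18, beside 0.01 over all genes.

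Cxcr4 was the third gene called lower, at -0.63 ± 0.18 (SE, adjusted p = 0.0333). The call was lost without mock replicate 2 or 3, IMQ replicate 1 or 2, or any vanillin replicate, with an adjusted p of up to 0.0845, and in a fit of only these groups (0.0818). Without mock replicate 3 the change was -0.42. Ccr7 (0.23, 95% interval 0.04 to 0.42, adjusted p = 0.0749), Cxcr5 (-0.18, 95% interval -0.36 to -0.0047, adjusted p = 0.125) and Ccr10 (0.07, 95% interval -0.21 to 0.34) were not called. With array weights Ccr7 (adjusted p = 0.0311) and Cxcr5 (0.0202) were called, as was Cxcr5 without mock replicate 1 (0.0429).

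Genes of like pattern were sought for Cxcl13 and Cxcl12, the members that differed most between the groups by the moderated F statistic. For Cxcl13 the 5 genes with the highest Pearson correlation over the 9 arrays were Stac2 (0.994), the late cornified envelope gene Lce3b (0.993), the neuronal activity gene Arc (0.993), the small proline-rich gene Sprr2i (0.989) and the transcription factor gene Bcl11b (0.989). Each of these was higher in IMQ than in mock and higher again with vanillin, by log2 steps of 0.65 to 2.42 and of 0.51 to 1.89. For Cxcl12 they were the keratin gene Krt77 (0.998), the granzyme gene Gzmc (0.997), the chaperonin gene Cct3 (0.996), the carbonic anhydrase gene Car6 (0.996) and the immunophilin gene Fkbp1a (0.995). Their log2 changes with imiquimod ran from -2.88 to -0.74, and those with vanillin from -0.23 to -0.03. These genes were picked for their likeness out of 17742 and share the same 9 arrays, so the correlations are a description.

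**Figure D3:**
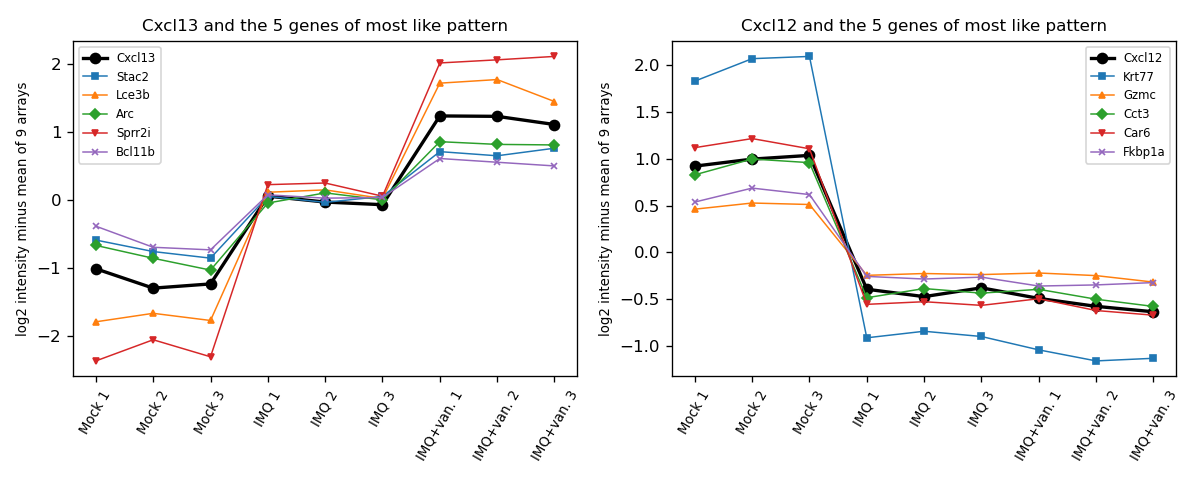
Log2 intensity minus the mean over the 9 arrays (y axis) on each array (x axis) for Cxcl13 and Cxcl12 (black) and the 5 genes whose values followed each most closely; lines join the arrays of a gene, and the order within a group has no meaning. The genes beside Cxcl13 rise in steps from mock to IMQ to vanillin, and those beside Cxcl12 drop from mock to IMQ and stay low.

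Genes that work with these chemokines were described from 6 lists. Their counts stand beside 53.6% of all probes called with imiquimod (24.0% higher, 29.6% lower). On adding vanillin 41.2% were called (24.3% higher, 17.0% lower), and for vanillin against mock 26.7% (11.9% higher, 14.7% lower). The median log2 changes over all genes were -0.06, 0.06 and 0.01 in that order. Many of the list counts lie near these shares, and no list was tested as a set. Atypical receptors, which bind chemokines without driving migration, and proteins that process chemokines gave 1 higher, 3 lower and 1 not called of 5 measured genes with imiquimod (median log2 change -0.43). Ackr3, the scavenging receptor of CXCL12, read 8.92, 8.55 and 8.46 in mock, 7.99, 7.94 and 7.94 in IMQ, and 8.52, 8.66 and 8.46 in vanillin skin. It fell with imiquimod, at -0.69 ± 0.12 (SE, adjusted p = 0.00168), and was higher with vanillin than with imiquimod alone, at 0.59 ± 0.12 (SE, adjusted p = 0.00680). Cxcl12 itself showed no such return. Dpp4, a peptidase that trims CXCL12, fell by 0.43 and then rose by 0.51 on the log2 scale, though with the mean over its probes neither change was called (-0.017, adjusted p = 0.891, and 0.12, adjusted p = 0.314). Ackr1, a chemokine carrier of venules, changed by -0.57 and 0.52, the latter lost without IMQ replicate 1 or 3 or vanillin replicate 1 or 2. For vanillin against IMQ 3 of these genes were higher and 2 not called, and against mock the 5 log2 changes ran from -0.09 to 0.40 and were not called.

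Lymphotoxin, made by lymphocytes, signals through the receptor LTBR and non-canonical NF-kB to induce CXCL13, CCL19 and CCL21 in stromal cells. With imiquimod 4 of its 14 genes were called higher, 6 lower and 4 neither (median log2 change -0.04). Ltb read 9.93, 10.05 and 10.32 in mock, 11.40, 11.48 and 11.35 in IMQ, and 10.69, 10.80 and 10.56 in vanillin skin. The vanillin arrays lay between the other groups, with changes of 1.31 ± 0.12 (SE) for IMQ against mock and -0.73 ± 0.12 (SE, adjusted p = 0.00275) for vanillin against IMQ. Its receptor gene Ltbr changed by 1.93 ± 0.13 and then by -1.38 ± 0.13 (SE, adjusted p = 0.000564), and Tnfsf14, encoding the related ligand LIGHT, by 1.69 ± 0.10 and -1.28 ± 0.10, on a dim probe (percentile 17.2). Some other genes of the list moved the opposite way. Tnfrsf13c, the B cell survival receptor for BAFF, changed by -1.32 ± 0.16 with imiquimod and by 0.71 ± 0.16 (SE, adjusted p = 0.00893) on adding vanillin. Tnfrsf11a, the receptor RANK, changed by -0.68 ± 0.16 and 0.87 ± 0.16 (SE, adjusted p = 0.00377). Nfkb2, the NF-kB subunit of this pathway, did not fall with imiquimod (0.21 ± 0.10, SE, adjusted p = 0.104, not called). It rose by 0.48 ± 0.10 (SE, adjusted p = 0.00613) on adding vanillin. The vanillin values of Tnfrsf13c and Nfkb2 and the imiquimod values of Tnfrsf11a and Nfkb2 were picked after they were seen. For vanillin against IMQ 5 were higher, 4 lower and 5 neither (median -0.10). Against mock 4 were higher, 2 lower and 8 neither (median 0.07), with Nfkb2 at 0.69 ± 0.10 and the kinase gene Map3k14 at -1.19 ± 0.13.

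**Figure D4:**
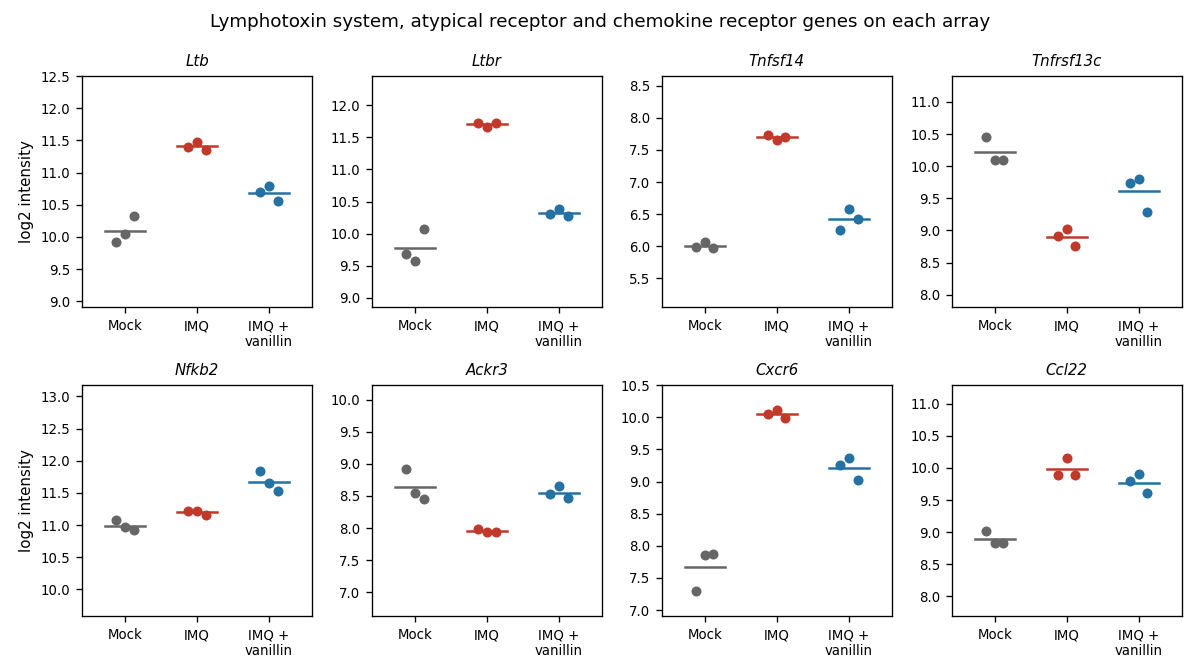
Log2 intensity (y axis, the same span in every panel) of 8 genes from the related lists on the 3 arrays of each group (x axis; points are arrays, bars are group means). Ltb, Ltbr, Tnfsf14 and Cxcr6 are highest on the IMQ arrays, and Ackr3 is lowest there.

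The other homeostatic and skin-homing chemokines gave 2 higher, 3 lower and 5 not called of 10 genes with imiquimod (median log2 change -0.15). Ccl22, a ligand of CCR4 on skin-homing T cells, rose by 1.08 ± 0.12 and Cxcl16, the ligand of CXCR6, by 0.85 ± 0.15, while Xcl1, which attracts cross-presenting dendritic cells, changed by -0.93 ± 0.12. Ccl25 read -0.49 ± 0.09, but 0.022 as the mean of its probes. Adding vanillin left 9 of the 10 uncalled and 1 lower (median 0.15), the lower one being Cxcl16 at -0.47 ± 0.15 (SE, adjusted p = 0.0340), a call lost without any IMQ replicate or without vanillin replicate 1 or 2. Against mock it gave 1 higher, 3 lower and 6 not called (median 0.05).

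The other chemokine receptors of lymphocytes and dendritic cells gave 5 higher, 0 lower and 4 not called of 9 genes with imiquimod (median log2 change 0.42). Cxcr6, a receptor of tissue-resident T cells, read 7.30, 7.86 and 7.88 in mock, 10.05, 10.11 and 9.98 in IMQ, and 9.25, 9.37 and 9.03 in vanillin skin. It rose by 2.37 ± 0.16 (SE, adjusted p = 1.33e-05) with imiquimod and changed by -0.83 ± 0.16 (SE, adjusted p = 0.00546) with vanillin. The fractalkine receptor gene Cx3cr1 changed by 1.94 ± 0.21 and -1.74 ± 0.21 on a dim probe (percentile 20.9). Adding vanillin gave 3 lower and 6 not called (median -0.14), and against mock 1 higher, 0 lower and 8 not called (median 0.20).

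Adhesion molecules of lymphoid homing gave 3 higher, 3 lower and 4 not called of 10 genes with imiquimod (median log2 change 0.22). Vcam1, an adhesion receptor for lymphocytes, was among those called higher and rose again with vanillin, by 0.68 ± 0.13 and then 0.58 ± 0.13 (SE, adjusted p = 0.0104). Other genes of the list took other courses. Icam1 changed by -0.57 ± 0.14 and 0.75 ± 0.14. Cd34 changed by -0.79 ± 0.07 and -0.08 ± 0.07, and Selplg by 0.93 ± 0.08 and -0.19 ± 0.08, the vanillin change not called for either. These contrasts were picked after their values were seen. Adding vanillin gave 3 higher and 1 lower with 6 neither (median -0.06), and the counts against mock were the same numbers (median 0.16). Signalling and arrest proteins of chemokine receptors gave 7 higher, 2 lower and 5 not called of 14 genes with imiquimod (median 0.28). Gnai2, a G protein subunit through which these receptors signal, rose by 0.64 ± 0.08, and Grk2, a kinase that desensitises them, by 0.84 ± 0.12. Rgs2 went the other way, by -1.25 ± 0.18 (SE, adjusted p = 0.000545) with imiquimod. It changed by 0.69 ± 0.18 (SE, adjusted p = 0.0167) on adding vanillin, a call lost without IMQ replicate 3 or vanillin replicate 2. Vanillin against IMQ gave 2 higher, 2 lower and 10 not called (median -0.05), with Gnai2 at -0.42 ± 0.08, and vanillin against mock gave 4 higher, 2 lower and 8 not called (median 0.19).

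**Figure D5:**
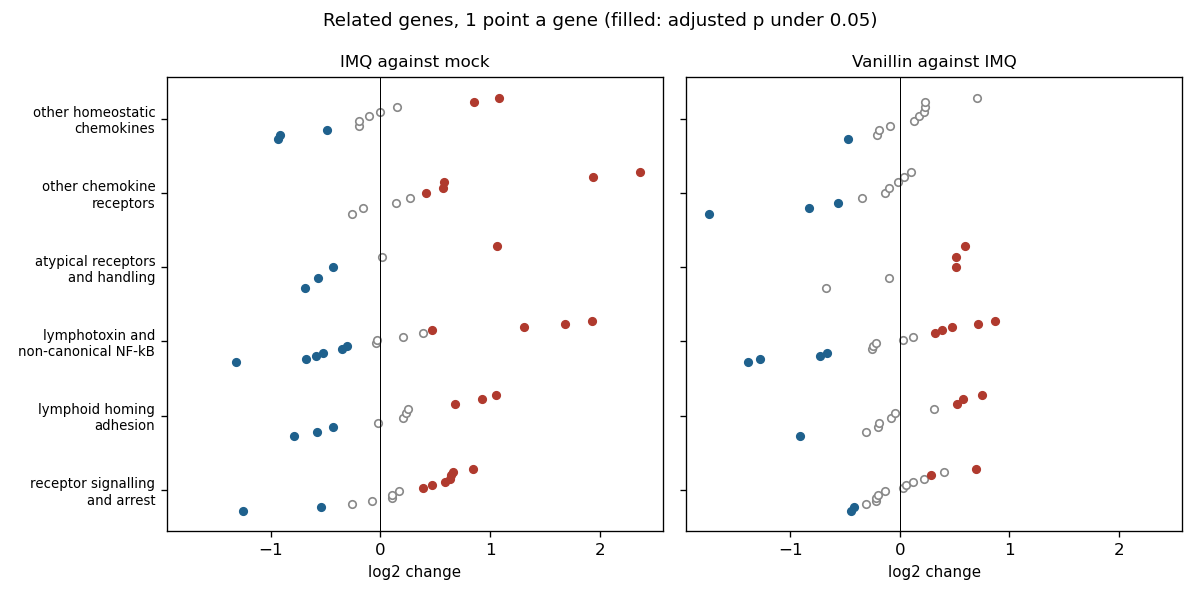
Log2 change (x axis) of each measured gene in 6 lists of related genes (y axis), with imiquimod (left) and on adding vanillin (right); filled points passed an adjusted p under 0.05, red higher, blue lower, and open points did not pass. The other chemokine receptors lie mostly to the right of 0 with imiquimod, 5 of 9 called higher, and 3 of 9 were called lower with vanillin. Of all probes 24.0% were called higher with imiquimod and 17.0% lower on adding vanillin.

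Markers of the cells that make or answer these chemokines moved on the same arrays. Their part in the members' changes was not tested. Of all probes 24.0% were called higher and 29.6% lower with imiquimod, and 24.3% higher and 17.0% lower on adding vanillin. Beside Cxcl12 and Cxcl14, 6 of 9 measured fibroblast markers were lower with imiquimod, 2 higher and 1 neither. Their summed intensity, which bright probes dominate, ran from 260720 to 278710 in mock, 186010 to 191690 in IMQ and 196980 to 204810 in vanillin skin. Of 8 blood endothelium markers 5 were lower and 3 not called, with sums of 23026 to 25045, 15512 to 16406 and 19483 to 19588. Both sums were highest in mock skin. The mean log2 intensity of the fibroblast markers was not, at 12.32 to 12.52 in mock, 12.11 to 12.16 in IMQ and 12.38 to 12.41 in vanillin skin, so the vanillin arrays lay within the mock range. The collagen gene Col1a1 rose with imiquimod by 2.24 ± 0.09, while Col3a1 changed by -1.46 ± 0.12. For the endothelium markers the mean log2 intensity kept the order of the sums, at 11.39 to 11.49, 10.85 to 10.92 and 11.12 to 11.16. Adding vanillin raised 4 fibroblast markers, lowered 1 and left 4 uncalled, and raised 4 endothelium markers with 4 uncalled. For vanillin against mock, 2 fibroblast markers were higher, 3 lower and 4 uncalled, and 1 endothelium marker was higher, 3 lower and 4 uncalled. Over all probes 11.9% were higher and 14.7% lower in that comparison. Of 10 keratinocyte markers, beside the epithelial Cxcl14, 4 were higher with imiquimod, 1 lower and 5 neither, with sums of 1184400 to 1236500, 1550900 to 1588900 and 1521000 to 1597000.

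Beside Cxcl13 and Cxcr5, 2 of 9 B cell markers were higher with imiquimod, 1 lower and 6 neither, and adding vanillin raised 2 and left 7 uncalled. Their summed intensity overlapped between the groups, at 7033.5 to 7618.2 in mock, 7270.6 to 7743.5 in IMQ and 7434.6 to 8911.1 in vanillin skin. The 2 raised by vanillin were Fcer2a, the low-affinity IgE receptor, and Cd79a, a subunit of the B cell receptor. Fcer2a changed by 0.94 ± 0.21 (SE, adjusted p = 0.00789), a call kept in all 9 fits with an array left out. Cd79a changed by 1.25 ± 0.35 (SE, adjusted p = 0.0214), a call lost without IMQ replicate 1 or 3 or vanillin replicate 1 and in a fit of only these groups (0.0519). Its partner Cd79b read -0.51 ± 0.36 and the kinase gene Blk -0.64 ± 0.24, and neither was called; Cd79b was picked after its value was seen. Of 7 follicular helper T cell markers, Cxcr5 included, 4 were higher with imiquimod, 1 lower and 2 neither. Adding vanillin raised 1, lowered 4 and left 2 uncalled, with sums of 26671 to 32724, 23252 to 24316 and 26218 to 30895. Bcl6 and Cxcr5 are the brightest of these probes, and the mean log2 intensity went the other way, from 9.13 to 9.32 in mock to 9.70 to 9.80 in IMQ and 9.46 to 9.62 in vanillin skin. Bcl6, the transcription factor of these cells, was the 1 raised on adding vanillin (0.51 ± 0.15, SE), a call lost without any IMQ replicate or without vanillin replicate 1 or 2. The costimulator gene Icos rose by 1.88 ± 0.12 with imiquimod. It changed by -0.39 ± 0.12 (SE, adjusted p = 0.0294) with vanillin, a call lost without any IMQ replicate or without vanillin replicate 1 or 3. No marker in these lists was at 0 on all arrays.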

How the data were processed

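Per the labels' protocols, total RNA was labelled with Cy5. The authors' deposited table holds linear probe intensities, nearly equal in distribution across the 9 arrays. The submitters' processing notes name limma, and no source used here gives the scanner, the background correction or the filters. Values below 1 were set to 1 and log2 was taken, with no further normalization. limma 3.58.1 in R 4.3.3 fitted 3 group means to the 9 arrays for each of 26423 probes. Every adjusted p is limma's, by Benjamini-Hochberg over all probes, and 0.05 was the threshold. Symbols came from the platform annotation, with 2126 of 20377 updated through RefSeq synonyms. The probe with the highest mean stands for a gene. Named from the 18 lists were at most 4 genes with the smallest p per comparison. The members and lists were chosen with earlier results of these data known. The fit was tested on simulated data with independent noise and far fewer changed probes than were called here. Alternatives are given in the closing section. The number of arrays limits the precision.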

Additional observations from a re-analysis of the deposited data

How the results depend on the processing

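Cxcl12, Cxcl13 and both Cxcl14 probes kept direction and call against mock, and Cxcl13 for vanillin against IMQ, under the alternatives run (quantile normalization, a filter on dim probes, another offset, spread prior, array weights, groups fitted, replicate block, threshold, mean over a gene's probes, each array left out). Of 429 alternative values for member probes, 384 kept direction and side of the threshold, 27 lost a call, 10 gained one and 8 turned sign. Single arrays left out moved uncalled changes across 0: Cxcr4 for IMQ against mock from -0.27 to 0.12, Cxcl14 from -0.041 to 0.072 and Ccr7 from -0.069 to 0.015 for vanillin against IMQ, and Ccr10 for vanillin against mock from -0.048 to 0.15. As the mean over a gene's probes, Ccl25 read 0.022 for IMQ against mock and Pnpla2, an adipocyte marker, 0.0080 for vanillin against mock. For vanillin against IMQ, an adjusted p under 0.01 left 5457 of 10898 probes, 1 of 2 members and 37 of 76 genes of the lists called. Leaving out 1 array there gave 6576 (without IMQ replicate 3) to 12805 probes, 1 to 2 members and 47 (without IMQ replicate 1) to 82 list genes. For vanillin against mock that threshold left 4231 of 7045 probes. With the replicate block, 3, 1 and 3 members were called for IMQ against mock, vanillin against IMQ and vanillin against mock, in place of 4, 2 and 4: Ccr7 (adjusted p = 0.0610) and Cxcr4 (0.0758 and 0.0668) were not called. A check of the replicate numbers showed no pairing, but with 3 arrays a group it cannot exclude one. Same-numbered arrays of different groups correlated from -0.265 to 0.222 in their deviations from the group means, 2 of 9 pairs over 0.1. Other-numbered arrays correlated from -0.180 to 0.261, 3 of 18 pairs over 0.1. An array correlated best with its own number, out of 3, in 6 of 18 cases. The cause of these shifts was not tested.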

Other observations

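Markers of other cells that meet these chemokines also moved, on arrays where 53.6% of all probes were called with imiquimod and 41.2% on adding vanillin. Of 7 neutrophil markers 3 were higher with imiquimod, 1 lower and 3 not called, and their summed intensity went from 3756.1 to 4013.6 in mock to 121830 to 126070 in IMQ and 107090 to 118650 in vanillin skin. That sum is carried by S100a9, which rose by 5.54 ± 0.09 on the log2 scale with imiquimod. Adding vanillin raised 5 of the 7 and left 2 uncalled (median log2 change 0.53), with the G-CSF receptor gene Csf3r higher by 1.25 ± 0.16, and their mean log2 intensity ran from 7.97 to 7.99 in mock, 8.94 to 9.13 in IMQ and 9.37 to 9.69 in vanillin skin. Among 9 T cell markers, of cells that can carry CCR7 and CXCR4, 6 were higher with imiquimod and 3 uncalled, and adding vanillin raised 2, lowered 4 and left 3 uncalled. Among 11 dendritic and Langerhans cell markers 2 were higher with imiquimod, 5 lower and 4 uncalled. For macrophage markers it was 4, 2 and 2 of 8, and for lymphatic endothelium markers 1, 1 and 3 of 5, in the same order.

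Of 10 adipocyte markers 7 were lower with imiquimod and 3 uncalled, and adding vanillin raised 7, lowered 1 and left 2 uncalled. Among 7 skeletal muscle markers 1 was higher, 4 lower and 2 uncalled with imiquimod, and adding vanillin raised 6 and left 1 uncalled, with summed intensities of 307120 to 343160 in mock, 250660 to 258110 in IMQ and 306650 to 325550 in vanillin skin.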
